A study of Homo sapiens with 18 samples.

Results

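HCC1937-OE-BRCA1 cells treated with the PARP inhibitor (PARPi) olaparib for 24 h were compared with the same cells after 12 h of olaparib, using 6 of the 18 RNA-seq libraries of the series. The 6 libraries were chosen by cell line and treatment time alone, as the 3 columns of the raw count matrix for each time. HCC1937 is a human breast cancer cell line with mutated BRCA1, and HCC1937-OE-BRCA1 is labelled as its derivative that overexpresses wild-type BRCA1. By these labels both groups carry the introduced BRCA1 and both received olaparib, and only the time of exposure differs. The other 12 libraries are 3 of HCC1937-OE-BRCA1 at 0 h and 9 of HCC1937-EV, HCC1937 with an empty vector, at 0 h, 12 h and 24 h. The labels name olaparib for the 0 h libraries too and call the genotype of HCC1937-EV wild type, whereas the study describes 0 h as untreated and HCC1937-EV as BRCA1-mutated. The series has no untreated library labelled 12 h or 24 h, so time with olaparib and time in culture cannot be told apart. Whether HCC1937-OE-BRCA1 is a clone or a pool is not given in the sources used here. The labels also do not say whether replicates came from separate cultures. Unless stated otherwise, p-values come from a fit of all 18 libraries. They measure only the spread between libraries of one condition, pooled over the series, which may be technical.

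PARP enzymes mark DNA breaks with chains of ADP-ribose, and inhibitors such as olaparib block this mark and hold PARP1 on DNA. The lesions that result are met by replication forks and are repaired through homologous recombination, for which BRCA1 is required. Olaparib can also raise interferon-stimulated genes, the antiviral genes that cells switch on when they sense nucleic acids in the wrong place. A gene that responds to a drug may rise and stay high, may return within hours, or may move only late, and a comparison of a later with an earlier time separates these courses.

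Total counts were 16219709, 16501734 and 15536971 reads in the libraries at 12 h and 15708622, 15801849 and 15767471 reads at 24 h, so both times were sequenced to nearly the same depth. Levels are given as CPM, counts per 1000000 reads with library sizes normalized by edgeR's TMM method, and are not divided by gene length. BRCA1 (ENSG00000012048.23, chromosome 17 from 43044295 to 43170245 on GRCh38) had 114, 129.6 and 126 CPM at 12 h and 155, 159 and 169 CPM at 24 h. The 2 groups did not overlap, but the log2 fold change of 0.39 (SE 0.11) was not called (adjusted p = 0.0853, from edgeR's quasi-likelihood test over all genes). The rise was called after a correction for GC content and length (adjusted p = 0.00583), with DESeq2's Wald test (0.0348) and with only the 6 libraries fitted (0.00186). Counts per gene do not tell the introduced BRCA1 transcript from that of the cell's own mutated gene. At 0 h BRCA1 had 166, 122 and 127 CPM in the same line. In HCC1937-EV it had 126, 111 and 117 CPM at 0 h, 118, 117 and 94.8 at 12 h and 90.9, 93.1 and 99.5 at 24 h. The libraries of the lines thus overlapped in BRCA1 at 0 h and at 12 h and lay apart at 24 h, so total BRCA1 counts show a higher level in every HCC1937-OE-BRCA1 library at 24 h only. PARP1, the main target of olaparib, had 444, 409 and 415 CPM at 12 h and 481, 485 and 512 at 24 h. Its log2 fold change of 0.22 (SE 0.07, adjusted p = 0.141) was not called, but it was with the correction (adjusted p = 0.0473), with DESeq2 (0.0207) and with only the 6 libraries fitted (0.0224).

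All 11 markers of breast epithelial cells were detected in each of the 6 libraries. KRT8, a keratin of luminal cells, was the most abundant of them. Their summed level was 11966, 11238 and 10604 CPM at 12 h and 8278, 8502 and 7741 CPM at 24 h. Markers of blood cells, of which 11 of 14 are in the table, summed to 76.9 to 94.0 CPM, nearly all of it CD14 with 70.6 to 85.8 CPM. Fibroblast markers summed to 1.33 to 2.33 CPM, with ACTA2 as the most abundant, and endothelial markers summed to 39.7 to 46.8 CPM, with EGFL7 as the most abundant.

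Of 18335 genes tested, 145 (0.791%) were higher and 158 (0.862%) were lower at 24 h than at 12 h, together 303 genes (1.65%). Genes were called at an adjusted p below 0.05, whatever the size of the change. In all 303 genes the 3 libraries of one time lay apart from the 3 of the other. The same libraries gave the calls, so this separation is no further support, and its share over all genes is not given here. Of the 303, 274 are protein-coding. Most of the changes were small. The median log2 fold change was 0.59 among the genes that rose and -0.62 among those that fell, against 0.01 over all genes, and 20 genes rose and 25 fell by more than 2-fold. Over all 18335 genes, 9462 log2 fold changes were positive and 8625 negative. The number of calls moved with the libraries in the fit. Without library 1, 2 or 3 at 12 h, 31, 26 and 43 genes were higher and 44, 53 and 64 were lower. Without library 1, 2 or 3 at 24 h, 53, 26 and 33 were higher and 54, 37 and 41 were lower. No called gene changed its direction in these 6 fits, and 49 of the 303 were called in every one of them. When only the 6 libraries were fitted, 1381 genes (7.64%) were higher and 1774 (9.81%) lower, and all 303 genes were among them. With only the 9 HCC1937-OE-BRCA1 libraries fitted, 217 of the 303 (71.6%) were called in the same direction. With the replicate number as a block 194 (64.0%) were. For one gene alone, an exact permutation of 3 against 3 libraries (two-sided) reaches a p of 0.1 at the least.

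**Figure D1:**
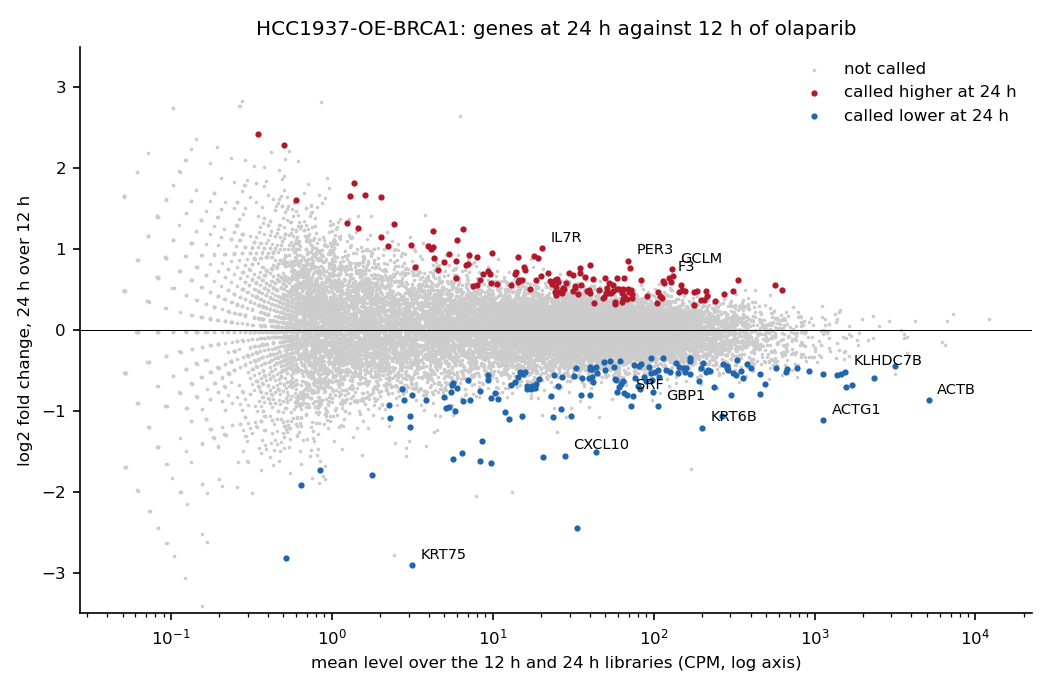
Log2 fold change from 12 h to 24 h of olaparib (vertical axis) against the mean level over the 6 libraries in CPM (horizontal log axis), with 1 point for each gene tested in HCC1937-OE-BRCA1, grey where not called, red for the 145 genes called higher and blue for the 158 called lower. ACTB stands out as a called fall from 6635 to 3643 CPM, and KRT75 as the fall with the largest labelled fold.

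The change from 12 h to 24 h followed the GC content of genes. Spearman's rho of the log2 fold change with GC content was -0.537 over 14137 genes, which all come from the same 6 libraries. A smooth trend on GC content and exonic length accounted for 18.5% of the variance of the fold changes. In the 1414 genes with the lowest GC content (median 37.0%) the median log2 fold change was 0.20, with 16 genes called higher and 3 lower. In the 1414 with the highest GC content (median 64.2%) it was -0.25, with 2 called higher and 35 lower. Library by library, the deviation of each gene from its mean in the line followed GC content with a rho of 0.544, 0.185 and 0.213 at 12 h and -0.291, -0.395 and -0.439 at 24 h. At 0 h it ranged from -0.585 to 0.550 among 3 libraries of one condition, so replicates differed in the same respect. After the trend was removed from each library, 383 genes were called higher and 346 lower (3.98% in all), and 272 of the 303 genes (89.8%) were still called in the same direction. The part of GC content in any single change was not tested. Of the genes named below, the correction ended the call of RARRES2, BNIP3L, SRSF3, CASP4 and KRT8 only.

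**Figure D2:**
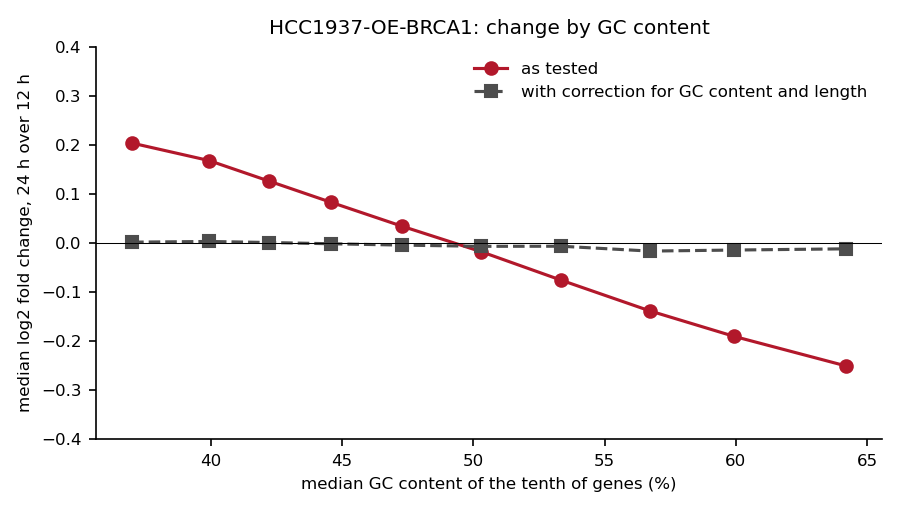
Median log2 fold change from 12 h to 24 h (vertical axis) in 10 groups of genes ordered by GC content (horizontal axis, median GC content of each group in percent), as tested (red circles) and with the correction for GC content and length (grey squares). The medians as tested fall from 0.20 in the lowest group to -0.25 in the highest, and the corrected ones stay near 0.

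The 3 protein-coding genes with the lowest adjusted p, ACTG1, TPM4 and ACTB, all fell and all belong to the actin cytoskeleton. ACTG1 (ENSG00000184009.13, chromosome 17 from 81509971 to 81523847), which encodes cytoplasmic gamma-actin, had 1604, 1548 and 1504 CPM at 12 h and 748, 712 and 698 CPM at 24 h. Every library at 24 h lay far below every library at 12 h. The log2 fold change was -1.11 (SE 0.09, adjusted p = 1.71e-06, edgeR's quasi-likelihood test). ACTB (chromosome 7 from 5527147 to 5563784), the gene of beta-actin, fell from 6881, 6706 and 6318 CPM to 3738, 3799 and 3393 CPM, by 0.86 on the log2 scale (SE 0.10, adjusted p = 8.05e-05). The libraries of the 2 times did not overlap in either gene. At 0 h the mean level of ACTG1 was 1958 ± 202 CPM (SD, n = 3) and that of ACTB 7143 ± 802 CPM (SD, n = 3), and in both genes the step from 12 h to 24 h was larger than that from 0 h to 12 h. Both were called lower at 24 h than at 0 h and at 12 h, the pattern called a late low, for which the larger p of the 2 comparisons was adjusted over all genes. Reads that match both actins or their many processed copies may have been split or dropped in counting, and ACTBP2, such a copy, fell from 1.02 ± 0.257 to 0.266 ± 0.0939 CPM (SD, n = 3).

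Several genes that build on actin fell too. SRF, the transcription factor that drives many actin genes, had 86.4, 88.3 and 86.6 CPM at 12 h and 51.6, 50.8 and 47.2 CPM at 24 h, a fall by 0.80 (SE 0.11, adjusted p = 0.000855). TPM4, a tropomyosin that coats actin filaments, had 579, 589.5 and 562 CPM at 12 h and 336, 341 and 325 CPM at 24 h, a fall by 0.79 (SE 0.09, adjusted p = 7.23e-05). Every library at 24 h lay below every library at 12 h in both genes. The filament crosslinker FLNA fell from 1939 ± 72.0 to 1189 ± 93.7 CPM, the non-muscle myosin MYH9 from 1336 ± 22.2 to 919 ± 38.6 CPM, and WDR1, which helps to take filaments apart, from 433 ± 33.6 to 287 ± 8.46 CPM (SD, n = 3 each). TPM1 had already fallen from 323 ± 32.4 CPM at 0 h to 184 ± 7.32 CPM at 12 h and fell further to 129 ± 4.73 CPM at 24 h. In a list of 48 actin and SRF target genes, added after these values were seen, 10 fell and none rose (the remaining calls were MYL9 and ACTN1), against 0.862% of all genes called lower. The median log2 fold change of the list was -0.21. After the GC correction 11 were called, all lower, beside 1.89% of all genes called lower, with a median of -0.15. FLNA (62.2% GC), SRF (60.9%), ACTG1 (57.8%) and ACTB (55.1%) are rich in GC and TPM4 (48.5%) is not. Of 11 tubulin genes, the subunits of microtubules, only TUBB2A was called, with 22.6 ± 4.29 CPM at 12 h and 13.8 ± 1.56 CPM at 24 h. ACTG1, ACTB, SRF, TPM4, MYH9 and WDR1 were called in all 6 fits that left out a library, FLNA in 5, TPM1 in 3, and ACTN1, MYL9 and TUBB2A in none.

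The CArG box, a run of 6 A or T letters between CC and GG, is the site that SRF binds. It was searched on both strands from 250 bases before to 50 after the RefSeq start of each gene (GRCh38.p14), chosen after the values were seen, and was present in 351 of 27305 promoters (1.29%), in 6 of the 43 promoters of the actin list and in 4 of the 8 promoters of its called members. The 4 are shown to let the match be read in place, with 50 bases on each side where these lie before the start and with the CArG box in capitals, at chr17:81512834-81512943 on the reverse strand for ACTG1, chr6:43171189-43171268 on the forward strand for SRF, chr19:16067315-16067424 on the forward strand for TPM4 and chrX:154374669-154374778 on the reverse strand for FLNA.
ACTG1: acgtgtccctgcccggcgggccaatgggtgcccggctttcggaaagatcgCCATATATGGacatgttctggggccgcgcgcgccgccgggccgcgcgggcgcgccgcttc
SRF: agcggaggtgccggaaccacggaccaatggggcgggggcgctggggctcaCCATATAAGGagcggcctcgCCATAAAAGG
TPM4: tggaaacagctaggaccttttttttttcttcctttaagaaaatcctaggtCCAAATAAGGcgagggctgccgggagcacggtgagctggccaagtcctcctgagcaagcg
FLNA: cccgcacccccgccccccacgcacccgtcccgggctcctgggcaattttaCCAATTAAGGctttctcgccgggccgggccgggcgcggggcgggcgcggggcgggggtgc
The boxes begin 94 bases before the start in ACTG1 and FLNA, 173 in TPM4, and 30 and 10 in SRF, which holds a pair of them. The list was written to hold SRF targets, so its share of matches is no separate support. Further motifs were searched in the same windows and are not all reported. A match gives the letters only, and binding was not measured.

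A few genes were highest at 12 h and had come down by 24 h. A gene was called a peak where it was higher at 12 h than at 0 h and than at 24 h, and a trough in the reverse case, with the larger of both p-values adjusted over all genes. There were 7 peaks (0.0382% of genes tested) and 1 trough (0.00545%). These counts moved with the processing. Fits without one of the 6 compared libraries gave 2 to 5 peaks and no trough, DESeq2 gave 28 peaks and 2 troughs, and the GC correction gave 26 and 11. The 2 comparisons share the 12 h libraries. The peaks were CXCL10, GBP1, SECTM1, TNFRSF19, CYP1A1, KRT6B and AQP3.

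CXCL10 (ENSG00000169245.6, chromosome 4 from 76021117 to 76023497) encodes a chemokine that draws T cells and is switched on by interferon. It had 5.97, 4.81 and 4.09 CPM at 0 h, 39.7, 45.4 and 40.4 at 12 h and 15.3, 16.6 and 10.97 at 24 h. No library of one time overlapped with those of another. The fall after 12 h was 1.55 on the log2 scale (SE 0.20, 2.93-fold, adjusted p = 0.000855), and the peak had an adjusted p of 0.00399. At 24 h the level was still above that at 0 h, by a log2 fold change of 1.53. GBP1 (chromosome 1 from 89052319 to 89065360), an interferon-induced GTPase that attacks intracellular microbes, had 77.5, 73.1 and 56.9 CPM at 0 h, 141, 144 and 133 at 12 h and 70.7, 76.2 and 71.6 at 24 h. The libraries at 24 h overlapped with those at 0 h and lay below all at 12 h, with a log2 fold change of -0.93 (SE 0.12, adjusted p = 0.000242, peak adjusted p = 0.00145). SECTM1, a secreted and membrane protein of epithelial and myeloid cells, went from 9.67, 15.03 and 14.4 CPM over 45.1, 38.7 and 40.7 CPM to 19.9, 22.4 and 17.6 CPM, a fall after 12 h by 1.05 (SE 0.18, adjusted p = 0.00343, peak adjusted p = 0.0211).

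Most interferon-stimulated genes did not follow this course. Of 84 in the list, 62 were called higher at 12 h than at 0 h and 68 at 24 h than at 0 h. Of all genes 1.7% and 4.71% were called higher in these comparisons. From 12 h to 24 h, 5 of the 84 fell (GBP1, GBP2, SECTM1, KLHDC7B and TRIM25) and 1 rose (HERC5), beside 0.862% and 0.791% of all genes. The median log2 fold change was 0.07. After the GC correction 8 rose and 6 fell, beside 2.09% and 1.89% of all genes, with a median of 0.03. With only the 6 libraries fitted 15 rose and 13 fell, beside 7.64% and 9.81%, so falls no longer outnumbered rises in either fit. With the replicate block 5 fell and 1 rose. GBP1 and SECTM1 were called in all 6 fits without a library, GBP2 in 1 and KLHDC7B in none. GBP2 fell from 29.5 ± 1.98 to 16.8 ± 0.750 CPM and KLHDC7B from 1818 ± 61.4 to 1276 ± 40.7 CPM (SD, n = 3). TRIM25, a ubiquitin ligase that activates the RNA sensor RIG-I, fell from 307 ± 1.80 to 229 ± 11.2 CPM. None of the 3 was called as a peak, with adjusted p of 0.15, 0.181 and 0.181. Within the guanylate-binding proteins, GBP3 had 101 ± 7.05 and 96.8 ± 7.55 CPM (adjusted p = 0.849) and GBP4 72.3 ± 1.997 and 60.7 ± 1.33 CPM (adjusted p = 0.424). IDO1, which breaks down tryptophan, had 5.59, 7.62 and 5.72 CPM at 12 h and 4.12, 3.07 and 1.90 CPM at 24 h, without a call (adjusted p = 0.0954).

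The IFIT and OAS families, which bind viral RNA and activate its decay, gave a single call from 12 h to 24 h in edgeR's fit of all 18 libraries. IFIT1, IFIT2, IFIT3, OAS1, OAS2, OAS3 and OASL had all been called higher at 12 h than at 0 h. IFIT2 was called, with 141, 153 and 154 CPM at 12 h and 200.1, 216 and 206 CPM at 24 h (log2 fold change 0.47, SE 0.11, adjusted p = 0.0282). Its groups did not overlap, but the call was lost in all 6 fits without a library. IFIT1 had 264 ± 12.0 and 303 ± 6.82 CPM (adjusted p = 0.437) and IFIT3 221 ± 18.6 and 283 ± 7.33 CPM (adjusted p = 0.116). IFIT3 was called higher with the GC correction (adjusted p = 0.0478), with DESeq2's Wald test (0.0352) and with only the 6 libraries fitted (0.00301). IFIT1 was called with only the 6 libraries fitted (0.0412). OAS1 had 348 ± 11.9 and 331 ± 10.1 CPM, OAS2 768 ± 52.1 and 867 ± 56.1 CPM, OAS3 1204 ± 57.7 and 1174 ± 94.7 CPM and OASL 310.3 ± 20.9 and 339.5 ± 10.2 CPM (SD, n = 3), with adjusted p from 0.43 to 0.908. HERC5, which attaches ISG15 to proteins, rose from 122, 126 and 123 CPM to 162, 185 and 176 CPM (log2 fold change 0.49, SE 0.11, adjusted p = 0.0225) and was also called higher than at 0 h, as a late high. ISG15 itself had 823 ± 64.4 and 864 ± 97.1 CPM, and RSAD2, an antiviral enzyme, 250.2 ± 9.35 and 232 ± 15.3 CPM. MX1, a GTPase that blocks influenza viruses, had 1362 ± 63.8 and 1140.4 ± 20.1 CPM (adjusted p = 0.196), and the death ligand TNFSF10 102 ± 3.66 and 139 ± 5.62 CPM (adjusted p = 0.0772).

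Interferon genes themselves were low at both times. IFNL1, a type III interferon, had 11.9, 14.9 and 11.7 CPM at 12 h and 16.9, 14.2 and 13.1 CPM at 24 h, with overlapping groups. IFNL3, which is close to its relatives in sequence, had 2.08 ± 0.168 and 1.70 ± 0.0342 CPM, and IFNB1 0.644 ± 0.0438 and 0.778 ± 0.284 CPM (SD, n = 3). None was called, with adjusted p from 0.595 to 0.797. Of the 12 qPCR primer genes of the study that could be tested, IFIT2 rose and CXCL10 fell, beside 0.791% and 0.862% of all genes. The median log2 fold change was 0.15. After the GC correction 2 of the 12 rose and 1 fell, beside 2.09% and 1.89% of all genes, with a median of 0.10. A list of T-cell attracting chemokines and CX3CL1, with 5 of 8 genes tested, does not hold CXCL10. In this list CCL28 fell from 20.4 ± 3.96 to 12.3 ± 1.13 CPM and CXCL16 from 233 ± 11.9 to 151 ± 3.66 CPM. Thus 2 of 5 fell, beside 0.862% of all genes. CXCL16 was called in all 6 fits without a library and CCL28 in 1. CCL5 had 12.1, 30.6 and 22.8 CPM at 12 h and 28.5, 17.9 and 16.4 CPM at 24 h, with no difference beyond its spread (adjusted p = 0.962). Of 28 genes of JAK-STAT signalling and the interferon receptors, and of 17 genes of antigen presentation by MHC class I, none was called. After the GC correction 2 of the 17 were called higher and none of the 28 was called. With that correction 2.09% of all genes were called higher and 1.89% lower. JAK1 had 106 ± 6.99 and 119 ± 7.68 CPM, STAT3 302 ± 5.33 and 321 ± 8.04 CPM, and HLA-B 1322 ± 135 and 1451 ± 105 CPM at 12 h and 24 h.

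The interferon-stimulated response element was searched as GAAANNGAAA on both strands of the same promoter windows. It was present in 996 of 27305 promoters (3.65%), in 36 of the 64 promoters of the interferon-stimulated list, and in 3 of the 5 promoters of its called members. It is shown in capitals for the 3 interferon-related peaks, at chr4:76023659-76023747 on the reverse strand for CXCL10, chr1:89065276-89065385 on the reverse strand for GBP1 and chr17:82333760-82333819 on the reverse strand for SECTM1.
CXCL10: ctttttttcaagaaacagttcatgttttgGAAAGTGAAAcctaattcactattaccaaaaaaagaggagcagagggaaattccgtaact
GBP1: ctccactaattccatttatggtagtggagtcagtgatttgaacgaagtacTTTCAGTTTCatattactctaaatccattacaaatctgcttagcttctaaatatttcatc
SECTM1: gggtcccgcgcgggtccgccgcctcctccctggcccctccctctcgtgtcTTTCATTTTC
The element begins 221, 127 and 3 bases before the start, respectively. In GBP1 and SECTM1 it lies on the opposite strand to the gene, and HERC5, which rose, also holds a match. The letters therefore occur in promoters of genes that fell, of genes that rose and of genes that were not called.

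The other peaks have no shared pathway in the lists. TNFRSF19, a receptor of the tumour necrosis factor family, had 0.369, 0.616 and 0.315 CPM at 0 h, 3.14, 2.90 and 2.29 at 12 h and 1.04, 0.675 and 0.674 at 24 h. The 12 h libraries lay above all others, with a fall by 1.79 (SE 0.29, adjusted p = 0.00309, peak adjusted p = 0.0199). CYP1A1, an enzyme that oxidises aromatic compounds and the best known target of the aryl hydrocarbon receptor, had 3.94, 3.82 and 3.97 CPM at 0 h, 9.11, 7.32 and 9.22 at 12 h and 2.21, 3.13 and 3.13 at 24 h. At 24 h it lay below every library at 0 h. The log2 fold change of -0.47 against 0 h was not called (adjusted p = 0.186, edgeR's quasi-likelihood test), nor was a late low (adjusted p = 0.47). The fall after 12 h was 1.60 (SE 0.21, adjusted p = 0.000361, peak adjusted p = 0.0326). Of 9 targets of this receptor, listed after CYP1A1 was seen, CYP1A1 fell, TIPARP rose from 62.8 ± 5.44 to 83.1 ± 3.69 CPM and the other 7 were not called, beside 0.862% and 0.791% of all genes.

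KRT6B, a keratin of stressed and wounded epithelium, had 118, 147 and 143 CPM at 0 h, 300.1, 269 and 268 at 12 h and 131, 122 and 109 at 24 h. The 24 h libraries were back among or below those at 0 h, with a fall by 1.21 (SE 0.11, adjusted p = 0.000102, peak adjusted p = 0.00165). AQP3, a channel for water and glycerol, had 217 ± 14.2, 409 ± 9.35 and 289 ± 6.003 CPM at 0 h, 12 h and 24 h (peak adjusted p = 0.0214). It was named because the rule for named genes left only this peak out. KRT75, a keratin of hair follicles, had the largest fall of the named genes, from 7.98, 4.11 and 4.58 CPM to 0.614, 0.675 and 0.920 CPM, which is 7.47-fold (log2 fold change -2.90, SE 0.34, adjusted p = 0.000855). It was 2.40, 2.46 and 2.33 CPM at 0 h, and as a peak it had an adjusted p of 0.565. Near-identical relatives make the split of reads within the KRT6 and the KRT75, KRT81 and KRT86 groups uncertain.

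The trough was F3, tissue factor, which starts blood clotting and is a target of the YAP coactivator. It had 234, 216 and 189.7 CPM at 0 h, 91.4, 99.4 and 101 at 12 h and 159, 149 and 149.96 at 24 h. The 3 times did not overlap. The rise after 12 h was 0.65 (SE 0.11, 1.57-fold, adjusted p = 0.00307, trough adjusted p = 0.0199), and at 24 h the log2 fold change against 0 h was -0.48. Of 20 YAP and TEAD targets, NT5E, an enzyme that makes adenosine outside the cell, rose as well, from 90.1 ± 5.71 to 138 ± 1.83 CPM (SD, n = 3). The other 18 were not called, and 0.791% of all genes were called higher. After the GC correction 5 of the 20 rose and 2 fell, beside 2.09% and 1.89%.

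**Figure D3:**
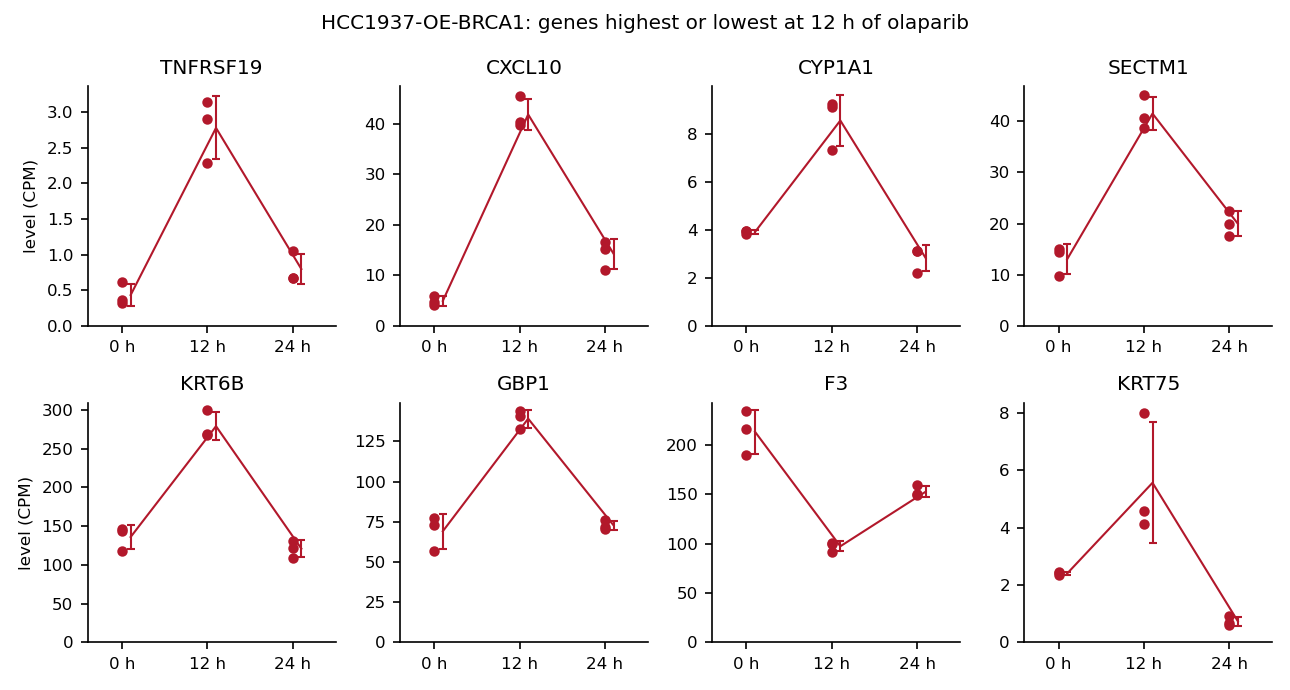
Levels in CPM (vertical axes, from 0) of the 6 named peaks, of the trough F3 and of KRT75 in HCC1937-OE-BRCA1 at 0 h, 12 h and 24 h of olaparib (horizontal axes), with a point for each library and a line through the means with SD bars of 3 libraries. CXCL10 goes from about 5 CPM over about 42 to about 14, while F3 runs the other way from 213 over 97.3 to 153 CPM.

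Beyond actin and the peaks, the largest falls were in genes of low to moderate level. NPR1, a receptor for natriuretic peptides, had 11.6, 13.3 and 12.9 CPM at 12 h and 3.62, 2.95 and 5.70 CPM at 24 h (log2 fold change -1.62, SE 0.21, adjusted p = 0.000361). C15orf48, which encodes a small mitochondrial protein induced in inflammation, fell from 17.4, 14.2 and 13.03 CPM to 4.12, 6.32 and 3.86 CPM (log2 fold change -1.64, adjusted p = 0.00224). In neither gene did the groups overlap. COBL, an actin nucleator, fell from 1.31 ± 0.0438 to 0.389 ± 0.177 CPM, PDLIM2, an adaptor of the actin cytoskeleton, from 12.4 ± 1.18 to 4.81 ± 0.621 CPM, and the serine protease TMPRSS3 from 17.2 ± 1.46 to 8.06 ± 0.611 CPM. These 3 and NPR1 were late lows. IGFL1, a secreted factor of the skin, fell from 9.49 ± 0.929 to 3.31 ± 0.480 CPM. S100P, a calcium-binding protein, had 83.6, 56.1 and 54.9 CPM at 12 h and 26.1, 22.1 and 20.4 CPM at 24 h, with a wide spread at 12 h and a call in 2 of 6 fits without a library. RARRES2, the gene of chemerin, had 4.27 ± 0.487 and 1.86 ± 0.527 CPM, a call that the GC correction ended. GLIPR1 and S100A2, named after their values were seen, fell from 32.1 ± 0.517 to 15.3 ± 2.35 CPM and from 361 ± 104 to 174 ± 27.9 CPM, and were called in 6 and 1 of the 6 fits without a library. The largest fall with a low adjusted p outside the protein-coding genes was WFDC21P, a transcribed pseudogene on chromosome 17 from 60083566 to 60091885, with 62.8, 54.3 and 51.9 CPM at 12 h and 11.5, 11.7 and 7.79 CPM at 24 h (log2 fold change -2.45, SE 0.22, adjusted p = 3.11e-06).

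Some keratins and other breast epithelial genes fell. Of 26 basal and luminal breast markers, 7 fell and none rose, beside 0.862% of all genes called lower, with a median log2 fold change of -0.15. After the GC correction 6 fell, beside 1.89% of all genes, and the median was -0.10. Of the 26, 14 then had a negative log2 fold change where 19 had before. KRT81, a hair keratin found in basal-like breast cancer, fell from 36.8, 27.6 and 27.4 CPM to 10.6, 9.95 and 10.4 CPM (log2 fold change -1.57, SE 0.23, adjusted p = 0.00136), with no overlap. The basal keratins KRT5 and KRT17 fell from 1644 ± 85.5 to 1116 ± 49.9 CPM and from 2106 ± 208 to 1317 ± 84.8 CPM, and the luminal keratin KRT7 from 1739 ± 111 to 1197 ± 98.2 CPM (SD, n = 3). KRT8 fell from 3641 ± 249 to 2684 ± 154 CPM without, but not with, the GC correction, and KRT18, its partner, had 1030.0 ± 66.6 and 818 ± 47.7 CPM without a call. The receptor gene ERBB2 fell from 183 ± 2.36 to 133 ± 6.51 CPM and CDH1, the gene of E-cadherin, from 471 ± 16.2 to 340.1 ± 14.8 CPM. Of 37 tested genes of keratinocyte differentiation, KRT6A, KRT6B and KRT13 fell and none rose, beside 0.862% of all genes called lower. The median log2 fold change was -0.23. After the correction 4 fell, beside 1.89% of all genes, with a median of -0.12. With the replicate block only KRT6B of the 37 fell, where 112 of all 18335 genes were called lower. KRT13 had 103 ± 8.06 and 61.8 ± 4.05 CPM and KRT6A 264 ± 17.999 and 186 ± 7.49 CPM at 12 h and 24 h, while KRT16 had 972 ± 104 and 772 ± 49.3 CPM (adjusted p = 0.237). KRT7 (62.9%), KRT81 (62.3%), KRT17 (58.1%) and KRT5 (56.8%) are rich in GC. Of these keratins, KRT81 and KRT6B were called in all 6 fits without a library and the others in 1 or none.

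The largest rises were in weakly expressed genes. HOXD10, a homeobox gene, and SLC47A1, an exporter of organic cations, had means below 1 CPM at both times and rose by 2.43 (SE 0.52, adjusted p = 0.0196) and 2.29 (SE 0.39, adjusted p = 0.00409), both named after their values were seen. Among protein-coding genes with a mean of at least 1 CPM the rise was largest in MYH15. MYH15, a myosin heavy chain, had 0.817, 0.605 and 0.445 CPM at 12 h and 2.33, 2.09 and 1.53 CPM at 24 h (log2 fold change 1.66, SE 0.42, adjusted p = 0.0463). DNAI4, a dynein chain of cilia, rose from 0.852 ± 0.0571 to 2.05 ± 0.250 CPM, SIRPB1, a receptor of myeloid cells, from 3.87 ± 0.951 to 9.23 ± 0.445 CPM, TCEAL1 from 3.76 ± 0.771 to 8.14 ± 1.13 CPM and SWT1 from 1.45 ± 0.101 to 3.01 ± 0.796 CPM (SD, n = 3). These 5 calls held in at most 2 of 6 fits without a library. IL7R, the receptor for interleukin-7, had 12.7, 13.5 and 13.98 CPM at 12 h and 25.4, 26.6 and 29.4 CPM at 24 h (log2 fold change 1.02, SE 0.17, adjusted p = 0.00357). Its libraries at 24 h lay above all those at 12 h and at 0 h (12.9 ± 2.48 CPM), and it was a late high (adjusted p = 0.00741). Its rise from 12 h to 24 h was called in all 6 fits without a library, that of KCNAB2 in 5, SPOCK1 in 2, and SULF1 and DCP1B in none. KCNAB2, a potassium channel subunit, rose from 12.5 ± 1.46 to 23.6 ± 1.05 CPM. SULF1 and SPOCK1, which act on the matrix outside cells, rose from 9.96 ± 1.44 to 18.7 ± 1.18 CPM and from 5.55 ± 0.923 to 10.4 ± 1.412 CPM. DCP1B, a cofactor of mRNA decapping, rose from 11.5 ± 1.19 to 19.7 ± 0.450 CPM.

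In all, 47 genes (0.256%) were late highs, above both 0 h and 12 h at 24 h, and 37 (0.202%) were late lows. The comparisons with 0 h and with 12 h share the 24 h libraries. In their own comparisons with 0 h, 312 genes were higher and 111 lower at 12 h, and 864 (4.71%) were higher and 651 (3.55%) lower at 24 h, with 2.31% and 8.26% of genes called in all.

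Genes of the circadian clock had the highest median log2 fold change of the lists with more than 10 genes, 0.45 over 21 genes, or 0.31 after the GC correction. Of the 21, 3 rose and 1 fell, beside 0.791% and 0.862% of all genes, and 7 rose and 4 fell after the correction, beside 2.09% and 1.89%. The clock is a loop in which period proteins repress their own activators. PER3 (ENSG00000049246.15, chromosome 1 from 7784320 to 7845177), a period gene, had 44.1, 51.1 and 52.7 CPM at 12 h and 89.0, 85.0 and 94.2 CPM at 24 h, with 46.8 ± 9.39 CPM at 0 h. All libraries at 24 h lay above all others, with a log2 fold change of 0.86 (SE 0.13, adjusted p = 0.00211, late-high adjusted p = 0.00485). TEF, an activator that binds D-boxes, rose from 24.6, 24.5 and 27.8 CPM to 45.1, 43.3 and 43.2 CPM (log2 fold change 0.77, SE 0.12, adjusted p = 0.00147). NR1D2, a repressor of the loop, rose from 22.4 ± 1.89 to 36.7 ± 2.44 CPM, and NPAS2, a partner of the activator BMAL1, fell from 28.7 ± 2.91 to 19.5 ± 1.08 CPM. PER3 and TEF were called in all 6 fits without a library, and NR1D2 and NPAS2 in none. PER1 had 6.80 ± 0.815 and 9.72 ± 0.544 CPM, PER2 12.1 ± 1.40 and 16.8 ± 0.316 CPM, CIART 3.28 ± 0.772 and 5.22 ± 0.276 CPM, DBP 13.2 ± 1.46 and 19.7 ± 3.20 CPM, and CRY2 9.34 ± 0.962 and 12.99 ± 0.708 CPM. None of these was called, and all were named after their values were seen. BMAL1 had 16.5 ± 1.28 and 13.1 ± 0.456 CPM and NR1D1 17.1 ± 1.63 and 19.5 ± 2.72 CPM. With no untreated cells at these times, the hour of the day and the time since the medium was changed cannot be told apart from olaparib here.

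The D-box, searched as TTANGTAA, was present in 615 of 27305 promoters (2.25%) and in the promoters of PER2 and PER3 among 19 clock genes. The E-box CACGTG was present in 2030 promoters (7.43%) and in 5 of the 19, among them TEF. The D-box of PER3, in capitals, begins 177 bases before the start, at chr1:7784064-7784171 on the forward strand.
PER3: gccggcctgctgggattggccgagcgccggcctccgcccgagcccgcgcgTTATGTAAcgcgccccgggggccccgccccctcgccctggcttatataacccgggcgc

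Targets of NRF2, the factor that answers oxidative stress, rose in part. Of 28 tested, 7 rose and none fell, beside 0.791% of all genes called higher, with a median log2 fold change of 0.18. After the GC correction 12 rose, beside 2.09% of all genes, with a median of 0.27. With the replicate block 4 rose and none fell, where 91 of all 18335 genes were called higher. GCLM, a subunit of the enzyme that starts glutathione synthesis, had 88.9, 96.2 and 106 CPM at 12 h and 159, 168 and 164 CPM at 24 h, with no overlap (log2 fold change 0.75, SE 0.12, adjusted p = 0.00224, late-high adjusted p = 0.017). GCLC, its partner, rose from 55.5 ± 3.91 to 72.6 ± 1.03 CPM, TXNRD1, which reduces thioredoxin, from 171 ± 8.82 to 220.4 ± 1.26 CPM, and GSR, which recycles glutathione, from 37.7 ± 1.504 to 47.6 ± 1.01 CPM (SD, n = 3). ABCC2, a pump that exports glutathione conjugates, rose from 2.83, 2.54 and 3.05 CPM to 5.71, 5.71 and 5.82 CPM (log2 fold change 1.03, SE 0.16, adjusted p = 0.00216). AKR1B10, an aldehyde reductase, rose from 6.73 ± 0.471 to 13.03 ± 1.21 CPM and ME1, malic enzyme, from 119 ± 4.20 to 175 ± 3.41 CPM. GCLM and ABCC2 were called in all 6 fits without a library and the other 5 in none.

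Some genes of DNA replication rose. Of 53 S-phase genes, 7 rose (RRM1, RRM2, DTL, MCM10, RFC3, CDC6 and ORC1) and none fell, beside 0.791% of all genes called higher. In 44 of the 53 the log2 fold change was positive, with a median of 0.19, beside 9462 of all 18335 genes. RRM1, the large subunit of ribonucleotide reductase, had 89.0, 96.2 and 92.9 CPM at 12 h and 136, 138 and 143 CPM at 24 h (log2 fold change 0.58, SE 0.11, adjusted p = 0.00712). RRM2, the small subunit, had 232, 232 and 233 CPM at 12 h and 319, 321 and 314 CPM at 24 h (log2 fold change 0.45, SE 0.09, adjusted p = 0.00945). In neither gene did the times overlap, and both were late highs. DTL rose from 177 ± 10.1 to 247 ± 11.1 CPM, MCM10 from 61.8 ± 2.501 to 84.4 ± 6.29 CPM, RFC3, part of the clamp loader, from 93.9 ± 2.25 to 126 ± 5.72 CPM, and the origin licensing factors CDC6 and ORC1 from 97.0 ± 4.90 to 128 ± 5.23 CPM and from 56.2 ± 1.28 to 71.7 ± 4.97 CPM. After the GC correction 18 of the 53 were called, all higher, beside 2.09% of all genes. With the replicate block 2 of the 53 rose and none fell, where 91 of all 18335 genes were called higher.

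Of 40 genes of homologous recombination and the Fanconi anaemia pathway, 4 rose and none fell, beside 0.791% of all genes called higher, with a median log2 fold change of 0.24. After the correction 9 rose and 1 fell, beside 2.09% and 1.89% of all genes, with a median of 0.13. With the replicate block 1 of the 40 rose and none fell, where 91 of all 18335 genes were called higher. RAD51AP1, an accessory factor of recombination, rose from 48.7, 55.6 and 48.5 CPM to 76.2, 83.0 and 80.4 CPM (log2 fold change 0.65, SE 0.15, adjusted p = 0.0341). The nucleases DNA2 and EXO1, which trim broken ends, rose from 12.0 ± 0.0999 to 18.5 ± 0.462 CPM and from 77.8 ± 1.45 to 104 ± 5.55 CPM, and FANCD2 from 51.0 ± 0.717 to 63.9 ± 0.650 CPM. None of these 4 held in any fit without a library, and of the S-phase genes RRM1 held in 5, RRM2 in 3 and the other 5 in none. Of 13 genes of the PARP family and PARG only TIPARP was called. Of 56 genes of G2 and mitosis only PSRC1 was called, a fall from 58.7 ± 2.13 to 41.7 ± 2.16 CPM. Of the 56, 41 had a positive log2 fold change, with a median of 0.13, beside 9462 of all 18335 genes. With only the 6 libraries fitted 17 of the 56 rose and 4 fell, beside 7.64% and 9.81% of all genes. Of 34 replication-dependent histone genes none was called, and of 30 p53 targets only PLK2, a kinase that rose from 92.2 ± 2.42 to 116 ± 5.26 CPM. After the correction 2 of the 13 PARP genes and 3 of the 30 p53 targets rose, and 3 of the 56 genes of mitosis fell, with a median of 0.05.

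In stress, metabolic and other lists the counts below stand beside 0.862% of all genes called lower and 0.791% called higher, or 1.89% and 2.09% with the GC correction. Of all 18335 genes, 8625 had a negative log2 fold change. Of 41 genes of the integrated stress and unfolded protein response, SLC7A5, an amino acid transporter, fell from 2913, 2753 and 2802 CPM to 1916, 1829 and 1859 CPM (log2 fold change -0.60, SE 0.09, adjusted p = 0.00224), with no overlap. The secreted peptides ADM2 and STC2 fell as well, from 51.3 ± 0.925 to 33.0 ± 3.28 CPM and from 176 ± 5.75 to 128 ± 8.80 CPM, so 3 of the 41 fell and none rose, against 5 and 3 after the correction. Of 34 genes of cholesterol and fatty acid synthesis, the regulator SREBF2 fell from 328 ± 1.91 to 242 ± 11.6 CPM and the desaturase SCD from 671 ± 35.4 to 485 ± 34.4 CPM, and 27 of the 34 had a negative log2 fold change. After the correction 6 of the 34 fell. Of 37 glycolysis and hypoxia genes, BNIP3 and its relative BNIP3L, which mark mitochondria for removal, rose from 21.1 ± 0.618 to 28.6 ± 1.57 CPM and from 8.58 ± 0.938 to 12.8 ± 1.29 CPM, and 4 of the 37 rose after the correction. NFKB2, a subunit of NF-kB, was the only one of 32 NF-kB targets and cytokines called and fell from 53.8, 50.2 and 48.7 CPM to 31.1, 29.4 and 27.3 CPM (log2 fold change -0.80, SE 0.13, adjusted p = 0.00224), while 4 of the 32 rose and 1 fell after the correction. Of 35 immediate early genes, SRF and ETV4 fell, ETV4 from 13.9 ± 1.99 to 7.69 ± 0.460 CPM, against 3 falls and 1 rise after the correction. Of 46 genes of matrix and epithelial-mesenchymal transition, LAMA3 rose from 102 ± 6.94 to 163 ± 7.04 CPM, the integrin ITGA6 from 460.4 ± 22.6 to 681 ± 24.7 CPM and TGFBI from 184 ± 5.95 to 246 ± 2.80 CPM. After the correction 11 of the 46 rose and 1 fell. SRSF3, a splicing factor, was the only one of 62 spliceosome genes called and rose from 259 ± 13.3 to 363 ± 9.98 CPM, a call that was lost with the GC correction. Of 30 cell death genes only CASP4 was called, which rose from 38.1 ± 1.18 to 53.7 ± 2.99 CPM, and it was lost with the correction too, under which 3 others rose.

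Some lists with no call or a single one lay to one side, where 8625 of all 18335 genes had a negative log2 fold change and 9462 a positive one. Of 79 cytosolic ribosomal protein genes, 74 had a negative log2 fold change, with a median of -0.26, and of 76 nuclear genes of the respiratory chain 58 did, with a median of -0.16. These medians were -0.25 and -0.16 after the GC correction, which called 2 of the 79 and none of the 76. With only the 6 compared libraries fitted, 45 of the 79 and 24 of the 76 were called lower, beside 9.81% of all genes. RPL8 had 4553, 3427 and 3280.2 CPM at 12 h and 2680.2, 2778 and 2261 CPM at 24 h, where the spread at 12 h was wide and the difference was not called (adjusted p = 0.191). Of 24 host genes of small nucleolar RNAs, DANCR fell from 47.4 ± 5.02 to 31.6 ± 0.417 CPM, beside 0.862% of all genes. In 20 of the 24 the log2 fold change was negative, with a median of -0.30. After the GC correction 1 rose and 3 fell, beside 2.09% and 1.89% of all genes. With only the 6 libraries fitted 1 rose and 8 fell, beside 7.64% and 9.81%. The 13 genes of mitochondrial DNA had a median of 0.11 and no call, or 0.03 after the GC correction, and their share of all counts was 5.47%, 5.64% and 5.57% at 12 h and 5.77%, 5.87% and 6.28% at 24 h. Of 20 TGF-beta targets and 14 immune checkpoint ligands and tryptophan-catabolic genes none was called. After the correction 1 of the 20 rose, and 2 of the 14 rose and 3 fell. With that correction 2.09% of all genes were called higher and 1.89% lower.

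**Figure D4:**
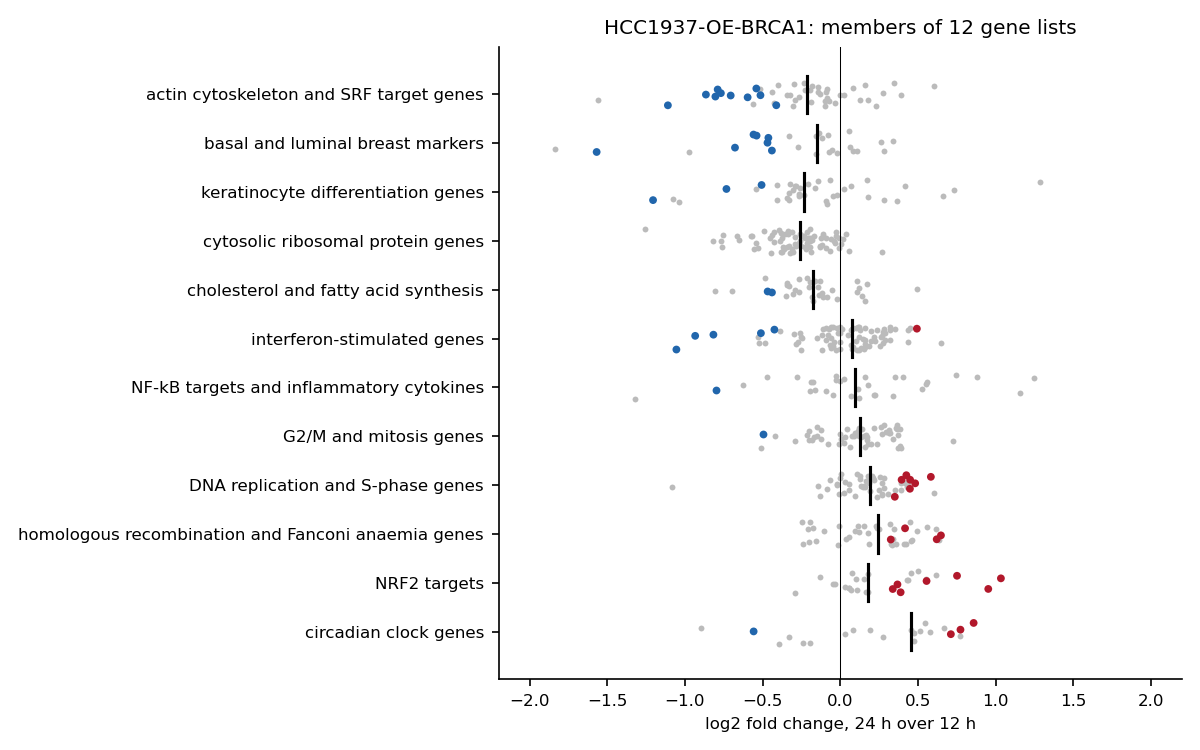
Log2 fold change from 12 h to 24 h of olaparib in HCC1937-OE-BRCA1 (horizontal axis) for each tested member of 12 gene lists (one list per line), with called members in red where higher and blue where lower, other members in grey and a black bar at the median of the list. Called actin genes and keratins lie left of 0, and called S-phase, recombination and NRF2 genes lie right of 0.

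The same interval was also sequenced in HCC1937-EV, where 25 genes (0.136%) were higher and 8 (0.0436%) lower at 24 h than at 12 h. The change of each gene in HCC1937-OE-BRCA1 was compared with that in HCC1937-EV by the interaction term of the model, which was positive in 69 genes (0.376%) and negative in 106 (0.578%), together 0.954% of genes. These counts ranged from 11 to 885 and from 25 to 1176 when 1 library of the series was left out, with 885 and 1176 without the third HCC1937-EV library at 12 h. The 2 lines differed far beyond BRCA1. In the 9 HCC1937-EV libraries EPCAM was at 0 to 0.0617 CPM, CDH1 at 0.313 to 1.20 CPM and KRT5 at 0 to 0.124 CPM. In the 9 HCC1937-OE-BRCA1 libraries they were at 252 to 352, 329 to 488 and 1062 to 1742 CPM. VIM, a filament protein of mesenchymal cells, went the other way, with 227 to 335 CPM against 0.636 to 1.90 CPM. VIM was chosen after its values were seen. Of the 11 breast epithelial markers, 4 or 5 were below 1 CPM in each HCC1937-EV library at 12 h and 24 h. Their sum was 3080 to 3935 CPM there, with KRT8 the most abundant at 1683 to 2181.8 CPM, so epithelial keratin was present in both lines. Whether a difference between the lines in their change over time comes from BRCA1 or from these other differences cannot be told apart.

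The actin genes differed between the lines. ACTG1 had 2977 ± 291 and 3167 ± 167 CPM (SD, n = 3) in HCC1937-EV at 12 h and 24 h, and the log2 change in HCC1937-OE-BRCA1 was lower by 1.20 (SE 0.13, adjusted p = 0.000159, edgeR's quasi-likelihood test). ACTB had 3580.5 ± 327 and 3624 ± 178 CPM in HCC1937-EV, a difference of -0.88 (SE 0.14, adjusted p = 0.00398). SRF had 61.6 ± 9.44 and 74.6 ± 2.33 CPM there, a difference of -1.08 (SE 0.16, adjusted p = 0.0033). For TPM4, MYL9 and MYH9 the differences were -0.66, -0.94 and -0.58, and FLNA, WDR1, TPM1 and ACTN1 did not pass the test (adjusted p from 0.0563 to 0.145). Among rises, GCLM had 109 ± 14.5 and 92.2 ± 6.18 CPM in HCC1937-EV and differed by 0.996 (SE 0.17, adjusted p = 0.00671), while PER3 and TEF, with 8.02 ± 1.07 and 10.6 ± 1.28 CPM and with 14.5 ± 1.42 and 19.6 ± 0.810 CPM there, gave differences of 0.46 (95% interval 0.04 to 0.88) and 0.34 (95% interval -0.01 to 0.68) that did not pass. Of the peaks, SECTM1 had 5.58 ± 1.53 and 8.10 ± 1.46 CPM in HCC1937-EV and differed by -1.59 (SE 0.27, adjusted p = 0.00671), and AQP3 had 117 ± 10.4 and 137 ± 3.71 CPM and differed by -0.74 (SE 0.12, adjusted p = 0.00594). TNFRSF19 had 5.43 ± 1.69 and 4.41 ± 0.841 CPM there, and its difference of -1.49 (SE 0.37, adjusted p = 0.0593) did not pass. The other peaks were below 1 CPM in every HCC1937-EV library at these times, with CYP1A1 at 0.669 ± 0.144 and 0.811 ± 0.0923 CPM. In HCC1937-EV, CXCL10 had no count at 24 h and 0.0625 ± 0.108 CPM at 12 h, KRT6B had no count at either time, and GBP1 had 0.0648 ± 0.00278 and 0.276 ± 0.122 CPM (SD, n = 3).

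**Figure D5:**
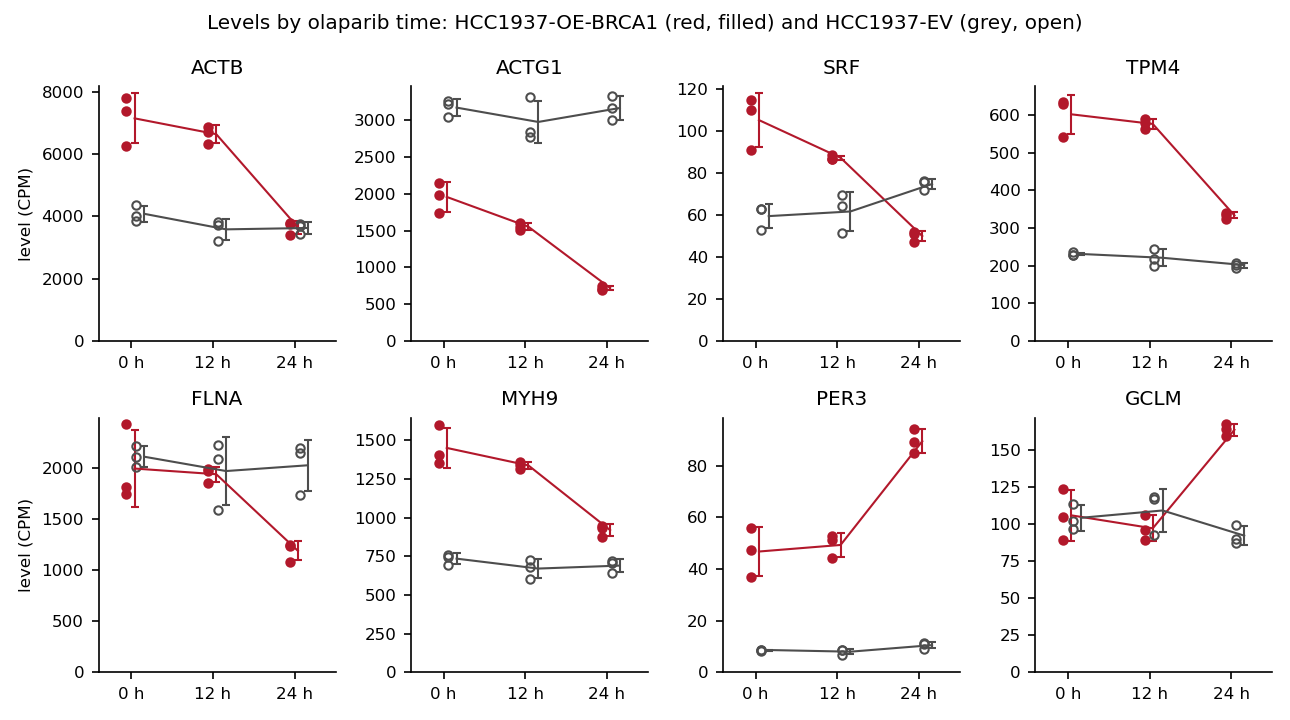
Levels in CPM (vertical axes, from 0) of 6 actin-related genes, PER3 and GCLM at 0 h, 12 h and 24 h of olaparib (horizontal axes) in HCC1937-OE-BRCA1 (red, filled) and HCC1937-EV (grey, open), with a point for each library and lines through means with SD bars of 3 libraries. ACTB, ACTG1 and SRF drop between 12 h and 24 h in HCC1937-OE-BRCA1, while in HCC1937-EV ACTG1 has means of 2977 and 3167 CPM at these times.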

How the data were processed

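For 35044 genes in 18 libraries the authors deposited unnormalized counts of reads, which are whole numbers, and each per-library table equalled its column of the joint table. The submitters' processing notes name HISAT2, featureCounts, DESeq2 and GRCh38/hg38; versions, annotation and strand use are not given in the sources used here. Positions are from GENCODE release 29 and promoters from RefSeq (GRCh38.p14). Total counts lay between 15536971 and 16501734 in the 6 libraries, and the biological coefficient of variation was 12.9%. Counts were tested with edgeR 4.0.16 (TMM, filterByExpr by condition, one mean per condition over 18 libraries, quasi-likelihood test, Benjamini-Hochberg adjustment over 18335 genes, threshold 0.05). CPM are mean ± SD. The trend on GC content and length was fitted with mgcv 1.9.3 and entered as an offset. Peaks, troughs and late genes took the larger p of 2 comparisons.

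Named were BRCA1, PARP1, the qPCR primer genes, the 12 largest protein-coding rises and falls without overlap at a mean of at least 1 CPM, up to 6 genes of each time course, and up to 4 called members of each list or, with none called, the 2 most abundant. Other names were chosen after their values were seen: the actin, tubulin and aryl hydrocarbon receptor members, GBP3, GBP4, TNFSF10, ISG15, MX1, RSAD2, IDO1, HERC5, TRIM25, PER1, PER2, DBP, CIART, BMAL1, NR1D1, CRY2, KRT8, KRT16, KRT18, ERBB2, CDH1, AQP3, WFDC21P, GLIPR1, S100A2, CDC6, RFC3, ORC1, TXNRD1, GCLC and GSR. The comparison, the members and the lists were chosen with earlier results of these data known. The procedure was tested on simulated data. Alternatives were DESeq2 1.42.0, other filters, fewer libraries, the replicate block and the GC correction. Promoters were found for 104 of 143 named genes.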

Additional observations from a re-analysis of the deposited data

Results flagged for a closer look

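For 34 named genes the log2 change from 12 h to 24 h differed between HCC1937-OE-BRCA1 and HCC1937-EV in the interaction test of edgeR's quasi-likelihood model, with Benjamini-Hochberg adjustment over all genes. The values below are the change in HCC1937-OE-BRCA1 minus that in HCC1937-EV, on the log2 scale. In HCC1937-EV, 4 or 5 of 11 breast epithelial markers were below 1 CPM, among them EPCAM and KRT5, while KRT8 was at 1683 to 2181.8 CPM. The lines thus differed in more than BRCA1, and an effect of BRCA1 and other differences between the lines cannot be told apart.

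In the list of 48 actin and SRF target genes, added after values were seen, 6 differed, by -1.20 for ACTG1, -0.88 for ACTB, -1.08 for SRF, -0.66 for TPM4, -0.94 for MYL9 and -0.58 for MYH9, beside 0.578% of all genes called with a negative difference. In the list of 84 interferon-stimulated genes 3 differed, by -2.91 for GBP1, -1.59 for SECTM1 and 0.76 for HERC5. Of all genes 0.578% were called with a negative difference and 0.376% with a positive one. OASL, one of the qPCR primer genes, differed by -0.89. It was not called in HCC1937-OE-BRCA1 (log2 fold change 0.13) and had 10.5 ± 1.38 and 21.3 ± 0.522 CPM (SD, n = 3) in HCC1937-EV at 12 h and 24 h, a log2 fold change of 1.02. GBP1 was below 0.5 CPM in all HCC1937-EV libraries, so its value there rests on few reads.

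Further negative differences were -2.07 for COBL, -1.62 for PDLIM2, -1.33 for CCL28, -1.69 for NPR1, -1.87 for CYP1A1, -1.36 for TMPRSS3, -0.96 for NFKB2, -0.62 for SREBF2, -0.65 for SLC7A5, -2.51 for WFDC21P, -0.74 for AQP3, -0.64 for ERBB2 and -1.38 for CDH1. CDH1 and CYP1A1 were near or below 1 CPM in HCC1937-EV. Positive differences were 1.70 for DNAI4, 1.27 for ABCC2, 1.27 for SPOCK1, 0.83 for F3, 0.68 for RRM1, 0.71 for DTL, 0.60 for RRM2, 0.97 for RAD51AP1, 0.996 for GCLM, 0.80 for BNIP3L and 0.78 for ITGA6.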

How the results depend on the processing

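From 12 h to 24 h, 145 genes were called higher and 158 lower, the interaction was positive in 69 and negative in 106, and 7 peaks, 1 trough, 47 late highs and 37 late lows were called. With DESeq2's Wald test these counts were 348 and 443, 284 and 413, and 28, 2, 123 and 119. With no filter on low counts they were 237 and 722, 258 and 744, and 42, 5, 87 and 394, so the share of falls rose. With the correction for GC content and length they were 383 and 346, 210 and 217, and 26, 11, 131 and 123. With the 6 compared libraries alone 1381 genes were higher and 1774 lower, and with the GC correction added, an alternative chosen after the data were seen, 848 and 1116. All 303 genes were among the calls of the 6 libraries alone. With the 9 HCC1937-OE-BRCA1 libraries alone, late highs numbered 19. A log2 fold change beyond 1 left 20 higher and 25 lower genes, and 27 and 36 in the interaction. With each of the 18 libraries left out in turn, the counts ranged from 26 to 283 higher and from 37 to 359 lower, from 11 to 885 and from 25 to 1176 in the interaction, and from 2 to 12 peaks, 0 to 1 trough, 5 to 93 late highs and 11 to 127 late lows. Each of the 6 compared libraries moved the counts of higher and lower genes, of the interaction and of late genes by over 1.5 times. Among the others, the counts of higher and lower genes moved that far without the first HCC1937-OE-BRCA1 library at 0 h (283 and 359), the third HCC1937-EV library at 12 h (268 and 289) and the first (249 lower). The interaction moved without the first and the third HCC1937-OE-BRCA1 library at 0 h (259 and 340, and 106 positive), the third HCC1937-EV library at 0 h (39 positive), any HCC1937-EV library at 12 h (22 and 39, 40 and 48, 885 and 1176) or at 24 h (33 and 62, 15 and 32, 28 and 51). Late highs moved to 30 and 31 without the second and the third HCC1937-EV library at 0 h. Without the third HCC1937-EV library at 12 h there were 12 peaks, 84 late highs and 78 late lows, without the first 56 late lows, and without the first HCC1937-OE-BRCA1 library at 0 h 93 late highs and 127 late lows.

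Replicate numbers were shared by the times. Deviations of same-numbered libraries correlated by 0.0903, -0.0158 and 0.1257, which gives no pairing, and the labels name none. With the replicate block 91 genes were higher, the interaction was positive in 41, and 3 peaks, 0 troughs, 20 late highs and 21 late lows were called. No gene of the PARP, mitosis, glycolysis and hypoxia, tubulin or cell death lists was called with it. Of the clock genes 2 rose and none fell, and 1 gene of antigen presentation rose. With the block and the GC correction together the counts were 298 and 288, 180 and 187, and 23, 9, 108 and 100. Other scaling factors and a minimum of 10 counts kept every count within 1.5 times of the first. No named gene called from 12 h to 24 h changed its sign under any alternative run. Some values without a call did. With the GC correction OAS3 went from -0.04 to 0.05, H2BC12 from -0.06 to 0.20 and LTBP3 from -0.25 to 0.03. The list medians of tubulins went from -0.04 to 0.04 and of TGF-beta targets from -0.04 to 0.03. That of glycolysis and hypoxia genes went from -0.02 to 0.07. The medians of JAK-STAT and interferon receptor genes and of endothelial markers went from -0.05 to 0.02 and from -0.21 to 0.06. With that correction rises outnumbered falls. The cause of these moves was not tested. Levels below about 1 CPM, such as that of COBL at 24 h, rest on few reads.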
